A study of Mus musculus with 5 samples.

Results

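The proteasome subunit genes are the genes that encode the protein chains of the proteasome, taken here as every gene whose symbol is Psma, Psmb, Psmc or Psmd followed by a number. Psmb8, Psmb9 and Psmb10, which encode the inducible subunits of the immunoproteasome, were left out by that rule. It found 36 genes among the 28001 features of the deposited matrices: 16 of the core particle (8 Psma and 8 Psmb) and 20 of the regulatory particle (6 Psmc and 14 Psmd).

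The proteasome is a barrel-shaped protease that degrades proteins tagged with ubiquitin. Psma genes encode the outer alpha rings of its core and Psmb genes the inner beta rings, of which Psmb5, Psmb6 and Psmb7 carry the cutting sites. Psmc genes encode the ATPases that unfold a substrate and thread it into the core, and Psmd genes encode the scaffold, the ubiquitin receptors and the deubiquitinase of the regulatory cap. A few Psmd genes encode chaperones that help build the cap and leave it afterwards. Most subunits are made in every cell in fixed proportion, and the transcription factor Nfe2l1 raises their genes when proteasome activity falls.

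Expression was measured by single-cell RNA sequencing in 5 libraries of sorted tdTomato-positive cells from C57BL/6J mice, in which both copies of Hic1 carry the tamoxifen-activated recombinase CreERT2. Hic1 marks mesenchymal progenitors, so only cells of the Hic1 lineage, and cells derived from them, carry the reporter. The muscle library held quiescent mesenchymal progenitors of the hindlimb from the genotype Hic1CreERT2/CreERT2;Rosa26LSLtdTomato/+, and the 4 sarcoma libraries held endpoint epithelioid sarcoma cells from Hic1CreERT2/CreERT2;Rosa26LSLtdTomato/LSLtdTomato;Smarcb1FL/FL, in which the recombinase can delete Smarcb1, a chromatin remodeller. Sarcomas 1 to 4 came from the shoulder, the head, the head/ear and the hip. All 5 libraries share the treatment, 2.5 mg of tamoxifen in 100 µL of sunflower oil on 5 days at 8 weeks of age and a washout of 10 days. Genotype, number of reporter copies, site in the body and presence of a tumour all change together between muscle and sarcoma, and cannot be told apart. With 1 muscle library, nothing measures the spread on that side. Whether each sarcoma is from its own animal is not in the labels; p-values therefore measure how these samples vary, and that variation may be technical.

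Between 6824 and 8206 cells per library were kept, with a median of 7566 unique molecular identifiers (UMIs, counted RNA molecules) per cell in muscle and 20005 to 28657 in the sarcomas. Ribosomal protein genes took 11.6% of UMIs in muscle and 13.3% to 23.0% in the sarcomas. Each pair of libraries shared 12 to 22 cell barcodes. Levels are given as CPM, the count scaled to 1e6 UMIs of the class, which relates a gene to all other RNA of the same cells. UMIs were summed over the cells of a class in a library, so the library, not the cell, is the replicate.

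The classes were set by gates on other genes. Sarcoma cells had at least 2 UMIs of Gchfr and 0 of Smarcb1 (5142, 7423, 2851 and 3265 cells in sarcomas 1 to 4), stroma had at least 4 UMIs of Ddah1, Wisp1, C1qtnf7 and Fbn2 together (184, 156, 1732 and 79 cells), and muscle progenitors had at least 1 UMI of Pdgfra (6117 cells). Smarcb1, the deleted gene, was at 88.7 CPM in the muscle library and 2.48, 3.02, 20.5 and 0.484 CPM in the sarcoma libraries. All 8 markers of mesenchymal progenitors were detected in the muscle progenitors, at 71461 CPM in sum. They summed to 19852, 26476 and 32784 CPM in the stroma of sarcomas 1 to 3 and to 1301 to 9297 CPM in sarcoma cells. The stroma gate of sarcoma 4 went against its name: its markers summed to 2333 CPM and its Smarcb1 level was 9.75 CPM, against 45.1, 66.4 and 59.8 CPM in the other 3 stromas and 87.7 CPM in muscle progenitors. The main fits that use it, and the counts of sarcoma cells against stroma, are also given without sarcoma 4. Tenocyte markers summed to 4564 CPM in the stroma of sarcoma 3 and to 572 to 1079 CPM in the other stromas, against 575 CPM in muscle progenitors.

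The subunit genes lie on 16 chromosomes, and RefSeq's promoter table of build GRCm38.p6 held 29 of the 36. The 250 bases before the start of 3 genes are shown, the catalytic Psmb5 and Psmb6, because one was higher in sarcoma cells than in muscle progenitors and the other was not, and Psmd10, because it lay farthest from muscle. Capitals mark TGACNNNGC, the core of the antioxidant response element that Nfe2l1 can bind, and the CCAAT box, on either strand.
Psmb5: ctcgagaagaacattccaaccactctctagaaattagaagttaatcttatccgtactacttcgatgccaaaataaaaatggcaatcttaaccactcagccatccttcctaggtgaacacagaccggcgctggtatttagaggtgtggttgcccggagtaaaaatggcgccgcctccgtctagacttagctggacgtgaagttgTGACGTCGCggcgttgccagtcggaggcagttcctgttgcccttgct
Psmb6: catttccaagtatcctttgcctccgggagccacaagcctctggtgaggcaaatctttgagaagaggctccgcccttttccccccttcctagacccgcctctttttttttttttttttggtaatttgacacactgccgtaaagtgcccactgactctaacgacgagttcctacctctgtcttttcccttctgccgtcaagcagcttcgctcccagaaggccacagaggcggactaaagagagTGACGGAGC
Psmd10: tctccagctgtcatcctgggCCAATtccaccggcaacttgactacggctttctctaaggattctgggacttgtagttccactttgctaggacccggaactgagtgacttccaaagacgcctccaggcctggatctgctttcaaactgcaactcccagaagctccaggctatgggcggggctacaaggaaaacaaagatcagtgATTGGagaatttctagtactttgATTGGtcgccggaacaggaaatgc
They lie at chr14:54617996-54618245 (minus strand), chr11:70525107-70525356 (plus strand) and chrX:140956712-140956961 (minus strand). Psmb5 held 1 TGACNNNGC beginning 47 bases before its start, Psmb6 held 1 beginning 9 bases before its start, and Psmd10 held 3 CCAAT boxes beginning 230, 47 and 24 bases before its start.

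Over the 29 matched members, 5 held TGACNNNGC in that window (Psmb5, Psmb6, Psmc6, Psmd9 and Psmd12), against 11.5% of the 27025 genes in the table. CCAAT was in 12 of 29 members and 37.5% of all genes. Of 2 other motifs, CCGGAAG was in 9 of 29 members and 7.83% of all genes, and GGGCGG in 17 of 29 and 35.4%. In the members' windows 1 pair of different motifs overlapped. The genes that hold TGACNNNGC did not share one pattern of levels below: Psmb5, Psmc6 and Psmd12 were above muscle in every sarcoma and Psmb6 and Psmd9 were not.

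The 36 genes together took 0.411% of the UMIs of muscle progenitors and 0.651%, 0.577%, 0.598% and 0.693% of those of the sarcoma cells of sarcomas 1 to 4 (mean 0.630% ± 0.0524, SD, n = 4). All 4 sarcomas lay above the muscle value. In stroma the share was 0.584%, 0.525%, 0.457% and 0.728%, again above muscle in each library. The spread was wider than in sarcoma cells, but its highest value is that of the sarcoma 4 gate, which went against its name. Other cells of the muscle library were near the progenitors: the 175 muscle cells that met the stroma gate had 0.431%, and the 1990 without Pdgfra had 0.431%.

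The core and the cap did not move in step across the sarcomas. Core genes took 0.240% in muscle progenitors and 0.399%, 0.354%, 0.340% and 0.382% in sarcoma cells, highest in sarcoma 1. Regulatory genes took 0.171% in muscle progenitors and 0.251%, 0.223%, 0.258% and 0.311%, highest in sarcoma 4. Within the cap, the 6 ATPase genes, which include Psmc3 (described below), took 0.0844%, 0.0672%, 0.0798% and 0.128%, while the 14 non-ATPase genes took 0.167%, 0.156%, 0.178% and 0.183%.

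**Figure D1:**
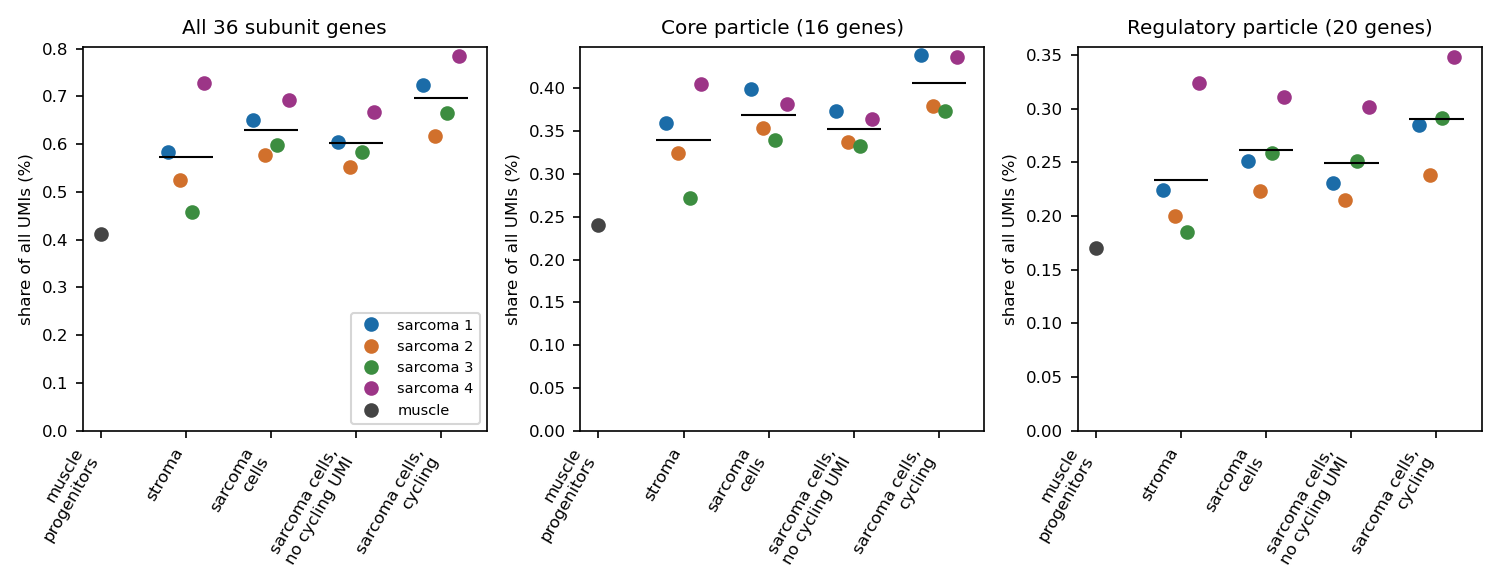
Share of all UMIs (percent) taken by all 36 subunit genes, the 16 core genes and the 20 regulatory genes in 5 cell classes; each point is 1 library and each horizontal line the mean of the 4 sarcomas. The single muscle point (0.411% for all genes) lies below every sarcoma point, and the stroma of sarcoma 3 (0.457%) is the nearest to it.

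The share also moved with depth within every class. Among muscle progenitors it was 0.370% in cells below the median depth and 0.430% in the rest, and among the sarcoma cells of sarcoma 1 it was 0.618% and 0.667%. The median muscle progenitor held 8513 UMIs and the median sarcoma cell 23138 to 32516. Other features moved with the muscle library too: Hspa1a, a heat-shock gene, was at 4093 CPM in muscle progenitors and at 5.84 to 126 CPM in sarcoma cells, and Mki67, a gene of dividing cells, was at 1.57 CPM and at 14.6 to 48.4 CPM. With sarcoma cells limited to those with 0 UMIs of 4 genes of dividing cells, an alternative added after seeing the data, the members' median log2 fold change against muscle was 0.73, where it was 0.80 over all sarcoma cells. The part of depth and of Hspa1a was not tested.

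Sarcoma cells were set against muscle progenitors gene by gene with edgeR's quasi-likelihood test over all 17632 genes with enough counts. No gene passed Benjamini-Hochberg adjustment at 0.05, so percent called was 0% and 0 of the 35 members tested passed either. Without adjustment 2217 genes (12.6%) and 6 members had p under 0.05, all 6 higher in sarcoma cells: Psma6, Psmc4, Psmd2, Psmd7, Psmd10 and Psmd14. On simulated counts of this design 0% of the changed genes were found, at log2 changes of 1 and of 2. Differences of these sizes were thus not detected by adjusted p when 200 genes changed. As a description, 28 members were higher in all 4 sarcomas than in muscle, against 21.9% of all genes tested, and 0 were lower in all 4, against 30%. The members' median log2 fold change was 0.80, where the median of all genes was 0.20. With scaling by library size alone these medians were 0.62 and 0.04.

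Every alpha subunit of the common core was above muscle in each sarcoma, as were 21.9% of all genes tested. Psma6 was at 93.2 CPM in muscle progenitors and 188, 164, 153 and 190 CPM in sarcoma cells, with a log2 fold change of 1.08 ± 0.38 (SE) and an adjusted p of 0.368 (edgeR). Psma3 was at 272 CPM and 398, 332, 336 and 497 CPM. Sarcoma 4 had the highest value of Psma1, Psma2, Psma3 and Psma6, and sarcoma 1 that of Psma4, Psma5 and Psma7, so the ring's genes did not rank the tumours alike.

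The 3 catalytic beta subunits differed from each other. Psmb5, the chymotrypsin-like site and the main target of proteasome inhibitor drugs, was at 153 CPM in muscle progenitors and at 238, 221, 226 and 254 CPM in sarcoma cells, with no overlap. Psmb7, the trypsin-like site, was at 61.2 CPM and at 171, 111, 83.3 and 97.2 CPM, with sarcoma 1 well above the others. Psmb6, the caspase-like site, was at 193 CPM in muscle progenitors and at 219, 180, 198 and 202 CPM, so muscle lay inside the range of the sarcomas. Their log2 fold changes were 0.80 ± 0.34, 1.11 ± 0.60 and 0.22 ± 0.32 (SE), with adjusted p of 0.433, 0.515 and 0.784 (edgeR). The structural beta genes Psmb1 to Psmb4 were above muscle in every sarcoma, as were 21.9% of all genes tested.

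**Figure D2:**
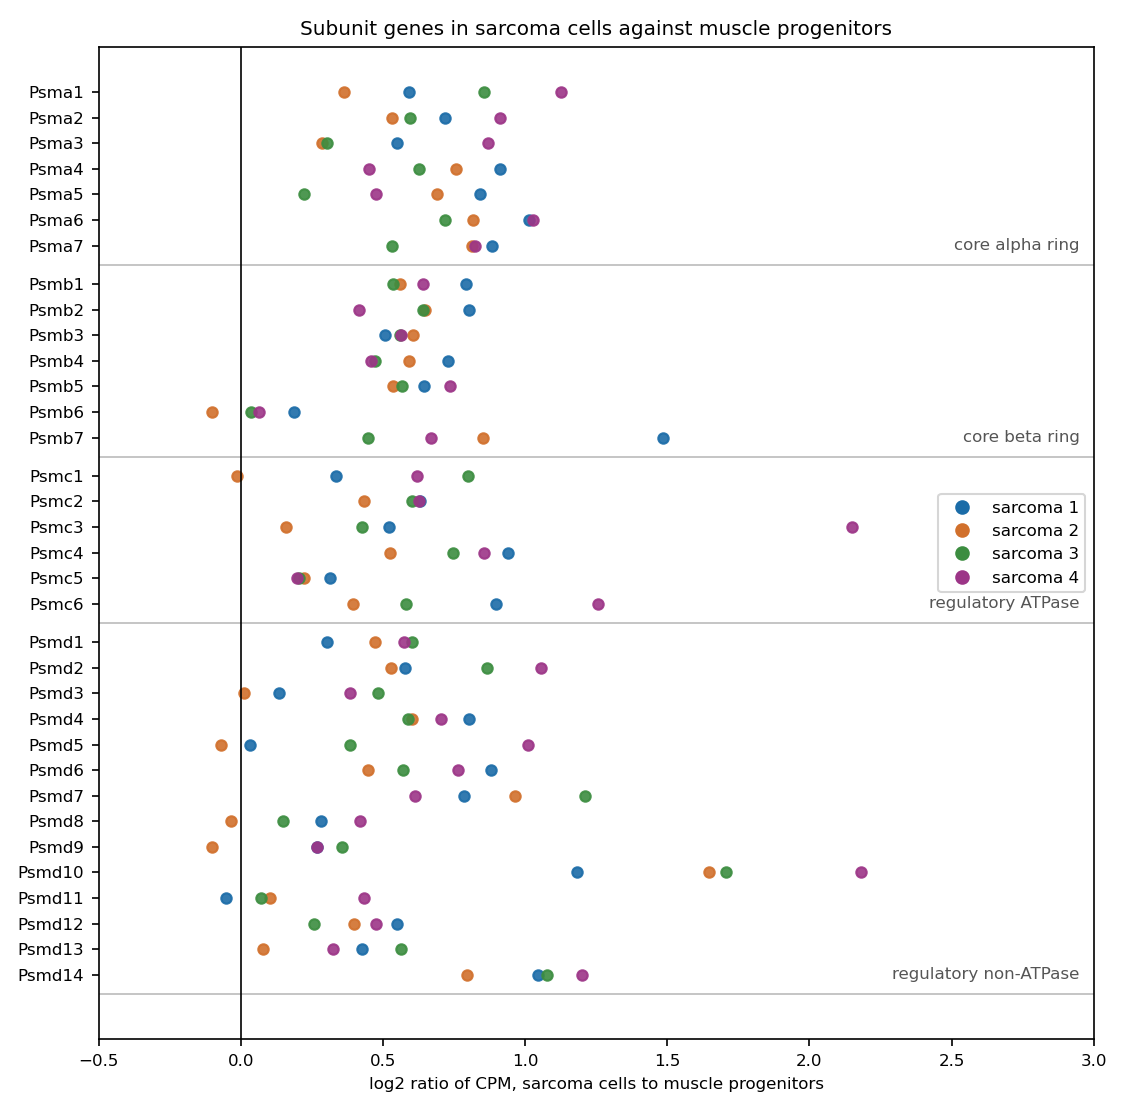
Log2 ratio of CPM between the sarcoma cells of each sarcoma and the muscle progenitors, for the 34 subunit genes other than Psma8 and Psmb11, grouped by ring or cap; each point is 1 sarcoma. Psmd10 lies to the right in all 4 sarcomas (1.18 to 2.18), Psmb6 straddles 0 (-0.10 to 0.18), and Psmc3 stands apart in sarcoma 4 (2.15).

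Among the ATPase genes, 5 of 6 were higher than muscle in every sarcoma, against 21.9% of all genes tested. Psmc1 was not (63.9 CPM in muscle progenitors, 80.5, 63.2, 111 and 98.2 CPM in sarcoma cells). Psmc4 had the smallest p of the 6, with a log2 fold change of 0.95 ± 0.35 (SE) and an adjusted p of 0.383 (edgeR). Psmc5 was the closest to muscle of those 5, at 96.2 CPM against 120, 112, 111 and 110 CPM.

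Among the non-ATPase genes of the cap, the largest fitted differences from muscle were in Psmd10, Psmd14 and Psmd7. Psmd10 encodes gankyrin, a chaperone of cap assembly that is overproduced in liver cancer, and it was at 18.9 CPM in muscle progenitors and 43.0, 59.3, 61.7 and 86.0 CPM in sarcoma cells. All 4 sarcomas were more than 1 above muscle on the log2 scale, and the fitted log2 fold change was 1.89 ± 0.51 (SE), with an adjusted p of 0.272 (edgeR). Over 15 alternative settings its adjusted p ran from 0.011 to 0.538, and 1 of them, DESeq2, called it. DESeq2 called 1914 genes (10.9%) here, among them 3 members: Psmd10, Psmd14 and Psmd7. Limma-voom called 104 genes (0.59%) and 0 members.

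Psmd14 encodes the deubiquitinase that removes the ubiquitin chain as a substrate enters. It was at 59.5 CPM in muscle progenitors and 123, 103, 126 and 137 CPM in sarcoma cells (log2 fold change 1.21 ± 0.33, SE; adjusted p = 0.277, edgeR). The ubiquitin receptor Psmd4 was at 101 CPM and 176, 153, 151 and 164 CPM. Both lay above muscle in every sarcoma.

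The other 2 assembly chaperones of the cap did not follow Psmd10. Psmd5 was at 24.2 CPM in muscle progenitors and 24.7, 23.0, 31.5 and 48.7 CPM in sarcoma cells, so only sarcomas 3 and 4 stood clear of muscle. Psmd9 was at 53.7 CPM and 64.7, 49.97, 68.7 and 64.6 CPM. Sarcoma 2 lay below muscle for both, and also for Psmb6, Psmc1 and Psmd8, and sarcoma 1 lay below it for Psmd11 (119 against 123 CPM).

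Psma8 and Psmb11 are not general subunits and were close to the limit of detection. Psma8 encodes the alpha subunit of the testis proteasome and Psmb11 the beta subunit of the thymus proteasome. Over whole libraries Psma8 had 4 UMIs in muscle and 22, 1, 14 and 3 in sarcomas 1 to 4, where 3 UMIs equal 0.0474 CPM in muscle and 0.0142 to 0.0200 CPM in the sarcomas. Psmb11 had 11 UMIs in muscle and 7, 6, 20 and 18 in the sarcomas. At these counts a fitted fold change rests on a few UMIs and is not read as a difference.

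Without gates, sarcoma libraries were compared with the muscle library over 18739 genes; 0 genes passed (0%), 1715 (9.15%) had an unadjusted p under 0.05, and 0 of 36 members passed with edgeR. DESeq2 called 1172 genes (6.25%) and 1 member, Psmd7. Again 28 members were higher in all 4 sarcomas, against 21.4% of genes, and 1, Psmb11, was lower in all 4, against 29.7%. This comparison and those of sarcoma cells and stroma share the muscle library.

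Within the tumours, sarcoma cells were compared with the stroma of the same libraries, with the library as a block. Over 14569 genes 171 passed adjustment (1.17%; 0.233% higher and 0.94% lower in sarcoma cells), and none of the 34 members tested was among them (edgeR). Unadjusted, 3914 genes (26.9%) and 4 members had p under 0.05, Psma6, Psmb7, Psmd2 and Psmd10, all higher in sarcoma cells, and neither DESeq2 (22.1% of genes called) nor limma-voom (7.54%) called a member. The median log2 fold change was 0.14 for the members and 0.07 for all genes. Higher values in all 4 libraries were found for 5 members, Psma2, Psmb1, Psmd2, Psmd4 and Psmd10, against 18.3% of all genes, which is near the background. In simulated counts, with 200 changed genes drawn from all those tested, log2 changes of 2 were found in 38.1% of genes and log2 changes of 1 in 1.02%. The rate at the members' own levels was not tested. The lack of called members is not read as equal levels.

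The members' median ratio did not have the same direction in every library. The median ratio of sarcoma cells to stroma over the 34 members was 0.16, 0.16 and 0.37 on the log2 scale in sarcomas 1 to 3, with 29, 25 and 34 members above 0. In sarcoma 4, whose stroma gate held cells low in Smarcb1, it was -0.11, with 6 members above 0. The share of all genes above 0 in each library is not given here, so these counts are not read as particular to the members. Without sarcoma 4 the median was 0.20 and 1567 genes passed (10.5%), again with 0 members. There 8 members had an unadjusted p under 0.05, where 4915 of all 14911 genes tested did. In those 3 libraries 22 of 34 members were higher in sarcoma cells each time, against 33.8% of genes, and 0 were lower each time, against 24.9%. The stroma of sarcoma 3, which held 1732 cells, had the lowest share of the subunit genes as a whole of the 4 stromas. Its shares of ATPase and of alpha ring genes were the lowest too.

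Psmd10 had the largest fitted difference between sarcoma cells and stroma. Its stroma values were 37.3, 37.0, 24.5 and 83.2 CPM, below the sarcoma cells of the same library in each case and by the most in sarcoma 3. The log2 fold change was 0.58 ± 0.21 (SE), with an adjusted p of 0.176 (edgeR), 0.73 without sarcoma 4 (adjusted p = 0.124) and 0.37 without sarcoma 3 (adjusted p = 0.358). Psmb7 was at 93.1, 71.4, 61.8 and 97.5 CPM in stroma, and Psma6 at 133, 115, 89.6 and 197 CPM, with log2 fold changes of 0.49 ± 0.16 and 0.44 ± 0.14 and adjusted p of 0.157 and 0.146. For both genes sarcoma 4 showed next to no difference, and without it the values were 0.63 and 0.58 (adjusted p = 0.0870 and 0.0572, edgeR). At the other end were Psmd3, Psmd8 and Psma3, with log2 fold changes of -0.05, -0.04 and -0.01.

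**Figure D3:**
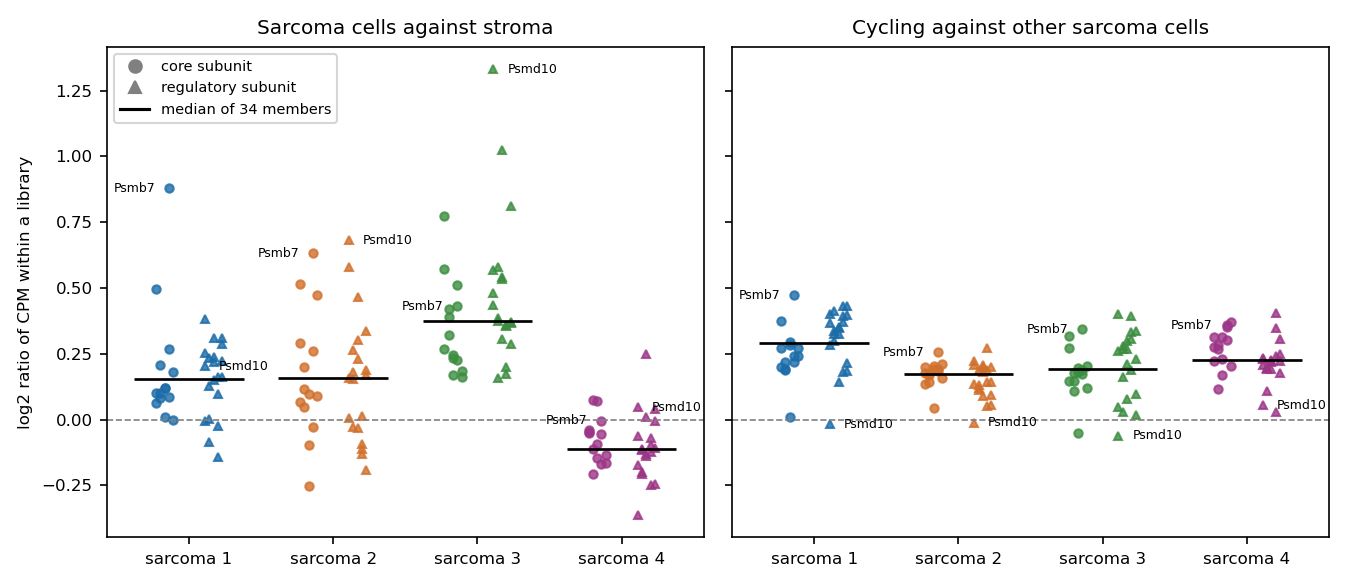
Log2 ratio of CPM within each sarcoma library, for sarcoma cells against stroma (left) and for cycling against other sarcoma cells (right); circles are the 14 core genes tested, triangles the 20 regulatory genes and lines the median of the 34. On the left the median falls from 0.37 in sarcoma 3 to -0.11 in sarcoma 4, and on the right all 4 medians lie between 0.17 and 0.29 with Psmd10 near 0.

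Stroma was also set against muscle progenitors, over 12793 genes. No gene passed (0%), 1258 (9.83%) had an unadjusted p under 0.05, and 0 of 34 members passed with edgeR, as with DESeq2, which called 636 genes (4.97%). The members' median log2 fold change was 0.54, where that of all genes was 0.05. In all 4 stromas 25 members were higher, against 20% of genes, and 0 were lower, against 29.9%. These counts include the stroma gate of sarcoma 4. Without sarcoma 4 the median was 0.39 and 285 genes passed (1.9%), with 0 members. The stroma of sarcoma 3, the largest, was the closest to muscle, with a median ratio of 0.18 on the log2 scale and 27 of 34 members above 0. The share of all genes above 0 there is not given here, so this count is not read as particular to the members. This stroma is also the one with the high tenocyte markers given above, and their part was not tested.

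Cycling sarcoma cells were those with at least 2 UMIs of Mki67, Top2a, Cenpf and Ube2c together (1495, 2060, 290 and 359 cells), and they were compared with sarcoma cells that had 0 (2818, 3769, 2189 and 2456). Subunit genes took 0.723%, 0.617%, 0.665% and 0.785% of UMIs in cycling cells and 0.604%, 0.553%, 0.584% and 0.666% in the others, higher in each of the 4 libraries. Cycling cells were also deeper, with a mean of 34383, 33736, 37142 and 44380 UMIs per cell against 25071, 23356, 22675 and 30933, and the part of depth was not tested.

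With the library as a block, 1728 of 14215 genes passed (12.2%), 972 of them higher in cycling cells (6.84%) and 756 lower (5.32%), and 1 of 34 members passed, Psmb7, which rose. Unadjusted, 20 members had p under 0.05, all higher, against 31.3% of all genes in either direction. The members' median log2 fold change was 0.18 and that of all genes was -0.06, and 32 of 34 members were higher in all 4 libraries, against 21.6% of genes. The differences were small and alike: the per-library medians were 0.29, 0.17, 0.19 and 0.23 on the log2 scale. How many members passed depended on the tool and scaling, from 0 when any 1 library was left out (8.74% of genes called without sarcoma 4) to 10 with library-size scaling (11.2% of genes called) and 11 with DESeq2 (21.2%).

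Psmb7 was at 206, 123, 100.5 and 119 CPM in cycling cells and 149, 103, 79.3 and 92.6 CPM in the others, a log2 fold change of 0.31 ± 0.08 (SE) with an adjusted p of 0.0474 (edgeR). Its adjusted p was 0.0535 to 0.162 when 1 library was left out. Psmd13, a scaffold subunit, was next, with 0.29 ± 0.07 (SE) and an adjusted p of 0.0515, and 5 of 13 alternatives called it. Psmd10 and Psmb1 were the members whose cycling cells did not lie above the others in every library. Psmd10 was at 42.9, 58.7, 59.6 and 87.1 CPM in cycling cells and 43.5, 59.3, 62.2 and 83.8 CPM in the others, so the gene farthest from muscle had cycling cells above the others in 1 library only (log2 fold change -0.06 ± 0.06, SE; adjusted p = 0.582).

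Psmc3 encodes an ATPase of the ring at the base of the cap and lies at chr2:91054009-91066369 on the plus strand (mm10). It was chosen for description after its values were seen. In sarcoma cells it was at 183, 142, 171 and 567 CPM, in stroma at 165, 146, 139 and 478 CPM, and in muscle progenitors at 128 CPM. Sarcomas 1 to 3 lay close together and sarcoma 4 was apart from them in both gates. The stroma gate of sarcoma 4 went against its name, so its value is not read as a level of stromal cells. In the comparison with muscle its log2 fold change was 1.25 ± 1.04 (SE; adjusted p = 0.643, edgeR), and it was 0.51 without sarcoma 4.

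The high level was seen across the cells of sarcoma 4 but was uneven, and the level of its summed sarcoma cells (567 CPM) lay well above that of the median cell. Per sarcoma cell of that tumour the 10th, 50th and 90th percentiles of Psmc3 were 136, 384 and 1174 CPM, against 59.1, 170.2 and 325 CPM in sarcoma 1 and 0, 124 and 263 CPM in sarcoma 2. With each cell thinned to 5000 UMIs, the mean was 2.74 UMIs of Psmc3 per sarcoma cell in sarcoma 4, 2.81 in its cells in neither gate and 2.42 in its stroma gate. The same mean was 0.917, 0.687 and 0.837 in the sarcoma cells of sarcomas 1 to 3. Cells with fewer UMIs were left out, 111, 861, 39 and 61 of the sarcoma cells of sarcomas 1 to 4. No other subunit gene came near: by the ratio of sarcoma 4 to the mean of the others, Psmc3 had rank 595 among 10074 genes, with a log2 ratio of 1.78, and the next member, Psmd5, had 0.88.

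Of the 19 genes within 500 kb of Psmc3 that reached 10 CPM in at least 1 library, 8 had a higher value in sarcoma 4 than in sarcomas 1 to 3 (7 when muscle is included), and their median log2 ratio was 0.03; over all 10141 genes 2627 were higher in sarcoma 4 than in the other sarcomas and the median was -0.12. Slc39a13, on the opposite strand, overlaps the end of Psmc3, and how the counting treated reads there is not given in the sources used here, so both levels are uncertain to that extent. It was at 67.4 CPM in sarcoma 4 and 29.4, 39.4 and 51.3 CPM in sarcomas 1 to 3. C1qtnf4, on the other side, was at 381 CPM in sarcoma 4 and at 0.893, 0.503 and 0.887 CPM in the others. Nr1h3 went the other way, at 0.101 CPM in sarcoma 4 and 25.3, 65.0 and 0.563 CPM in the others.

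**Figure D4:**
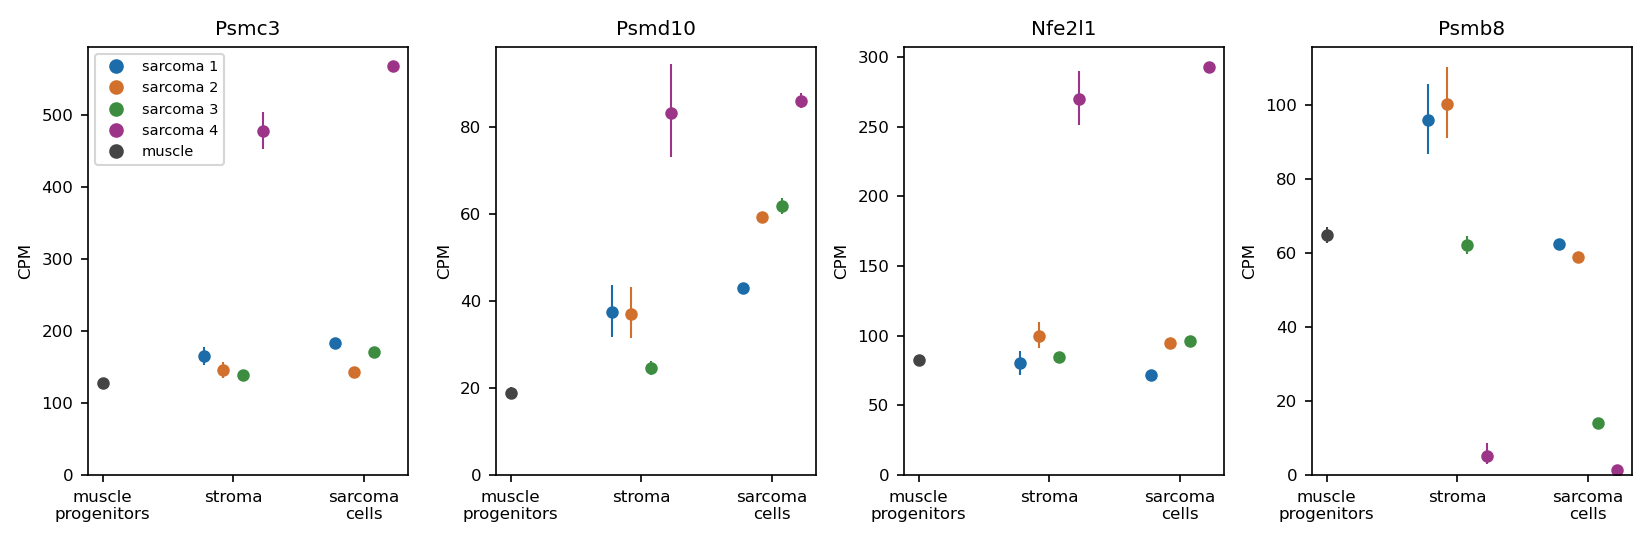
CPM of Psmc3, Psmd10, Nfe2l1 and Psmb8 in muscle progenitors, stroma and sarcoma cells; each point is 1 library and bars are exact 95% Poisson intervals, which cover counting error only. Psmc3 and Nfe2l1 are high in the sarcoma cells of sarcoma 4 (567 and 293 CPM), where Psmb8 is near 0 (1.25 CPM). Psmc3 and Nfe2l1 are also high in its stroma gate, which went against its name.

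Outside the 36 genes, 39 genes that assemble, control or feed the proteasome were counted in 7 groups. The list was put together with earlier results of these data known. Against muscle progenitors 0 of the 39 passed with edgeR and 18 were higher and 9 lower in all 4 sarcomas, against 21.9% and 30% of all genes. Against stroma 0 of 39 passed, 13 were higher and 3 lower in all 4 libraries, against 18.3% and 16.2%. DESeq2 called 6 higher and 1 lower, where it called 22.1% of all genes. Limma-voom called 1, where it called 7.54% of all genes. Without sarcoma 4, 22 were higher and 4 lower in all 3, against 33.8% and 24.9%. There 1 of the 39 passed, Uba1, where 10.5% of all genes did. Its log2 fold change was 0.88 ± 0.13 (SE) with an adjusted p of 0.0382, and 0.67 and 0.136 over all 4 (edgeR). Between cycling and other sarcoma cells 2 passed, both higher, a smaller share than the 12.2% of all genes.

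Nfe2l1, the transcription factor that drives subunit genes when the proteasome is impaired, was at 82.6 CPM in muscle progenitors and 72.1, 94.8, 96.2 and 293 CPM in sarcoma cells. The first 4 values lay within a narrow range, and sarcoma 4 was apart, as for Psmc3. In the stroma gates the values were 80.1, 100.1, 84.5 and 270.2 CPM, where that of sarcoma 4 went against its name. Of the 15 genes within 500 kb of Nfe2l1 that reached 10 CPM in at least 1 library, 8 were highest in sarcoma 4 among the sarcomas. Their median log2 ratio of sarcoma 4 to the mean of the others was 0.57, where that of all genes was -0.12. The part of the neighbourhood was not tested. In cycling cells Nfe2l1 was lower than in other sarcoma cells in all 4 libraries (66.4, 87.8, 84.0 and 240.0 CPM against 76.8, 99.6, 98.5 and 301 CPM), while 32 of the 34 subunit genes were higher. That difference had a log2 fold change of -0.28 ± 0.08 (SE) and an adjusted p of 0.0671 (edgeR), and DESeq2 (adjusted p = 0.00703) and limma-voom (0.0465) called it.

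The immunoproteasome genes differed between the sarcomas. Psmb8, which replaces Psmb5 under interferon, was at 64.9 CPM in muscle progenitors, 62.3, 58.9, 14.1 and 1.25 CPM in sarcoma cells and 95.7, 100.1, 62.1 and 5.22 CPM in stroma. It was lower in sarcoma cells than in stroma in all 4 libraries, with a log2 fold change of -1.35 ± 0.35 (SE) and an adjusted p of 0.124 (edgeR). Without sarcoma 4 the log2 fold change was -1.18 (adjusted p = 0.139), and DESeq2 on all 4 gave an adjusted p of 0.00816. Psmb10 was at 70.1 CPM in muscle progenitors and 87.7, 71.6, 30.7 and 35.1 CPM in sarcoma cells, and Psmb9 at 24.6 CPM and 28.4, 28.9, 10.2 and 4.53 CPM. For all 3 genes sarcomas 3 and 4 were the low ones.

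Of the partners that bind the cap, Usp14, a deubiquitinase that trims chains, was at 38.4 CPM in muscle progenitors and 69.8, 79.2, 77.4 and 103 CPM in sarcoma cells (log2 fold change 1.28 ± 0.39, SE; adjusted p = 0.317, edgeR). Uchl5, the other deubiquitinase of the cap, rose in cycling cells, at 43.5, 31.3, 42.2 and 39.9 CPM against 20.2, 19.04, 20.7 and 21.1 CPM. Its log2 fold change was 0.89 ± 0.10 (SE) with an adjusted p of 0.00323 (edgeR), and all 13 alternatives called it. The assembly chaperone Psmg2 also rose, with a log2 fold change of 0.31 ± 0.07 (SE) and an adjusted p of 0.0372, and it lost the call when any 1 library was left out (adjusted p 0.0607 to 0.146). No subunit gene differed between cycling and other sarcoma cells by as much as Uchl5.

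Ubb, which encodes a chain of ubiquitins, was at 2025 CPM in muscle progenitors and 1308, 764, 1467 and 988 CPM in sarcoma cells, lower in every sarcoma than in muscle. Uba1, the enzyme that activates ubiquitin, was higher in every sarcoma, at 66.9 CPM and 128, 90.4, 124 and 113 CPM. Ubb is induced by stress, and the level of the heat-shock gene Hspa1a in the muscle library is given above; its part in this difference was not tested.

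Of the 8 genes that deliver substrates, such as Vcp, which extracts proteins from complexes, 7 were higher than muscle in every sarcoma, against 21.9% of all genes. The remaining 1 was lower in every sarcoma, against 30%. Vcp was at 220.0 CPM in muscle progenitors and 252, 298, 371 and 251 CPM in sarcoma cells. Of the 5 assembly genes, 3 were higher in every sarcoma, against the same 21.9%: Pomp, Psmg1 and Psmg2. Pomp, the chaperone of the core, was at 173 CPM and 224, 214, 190.1 and 198 CPM.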

How the data were processed

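Each of the 5 libraries (10x 3′ assay) has 1 deposited matrix of UMI counts per gene and barcode, not normalized. Per the file headers the authors used Cell Ranger 6.0.1; the build, mm10, is from the submitters' processing notes. For the annotation release, the sources used here give no name. The members, gates and gene lists were chosen with earlier results of these data known.

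A cell needed 500 detected genes and no more than 10% mitochondrial UMIs. Doublets were not called; the 40, 24, 63 and 91 cells of sarcomas 1 to 4 that met both gates were left out of both classes, as were cells in neither. Counts were summed per class and library. Sums were tested with edgeR 4.0.16 (quasi-likelihood, TMM, filterByExpr, Benjamini-Hochberg over all genes, threshold 0.05) in R 4.3.3. Sarcoma cells against stroma, and cycling against other sarcoma cells, had the library as a block, since both classes come from the same libraries. Named by rule were the catalytic and tissue-specific core subunits, Psmd4, Psmd14, the assembly chaperones, and the 3 highest and 3 lowest members of sarcoma cells against stroma; other genes were named after their values were seen. Alternatives were DESeq2 1.42.0, limma-voom 3.58.1, other scalings, filters and gates, thinning to 3000 UMIs and leaving out each sarcoma. The test was tried on simulated counts with 200 changed genes. Intervals are exact, at 95%. Counts were read and summed in Python 3.11.15 (pandas 2.3.3, numpy 2.4.6), intervals computed with scipy 1.17.1 and figures drawn with matplotlib 3.10.9. Some genes of the linked list are not reported here by name.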

Additional observations from a re-analysis of the deposited data

Results flagged for a closer look

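In 186 groups of 4 sarcoma values (each member, 19 linked genes and 7 sums, in sarcoma cells, stroma and whole libraries), 19 had 1 sample far from the other 3, where chance alone flags about 1 group in 20; the groups are not independent, since the 3 classes share libraries. Sarcoma 4 stood apart for Psmc3 (567 CPM in sarcoma cells, 478 in its stroma gate, 563 in the library) and for Nfe2l1 (293, 270.2 and 296 CPM).

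In the stroma gate of sarcoma 4, which held 79 cells and went against its name, Psmd1 (128 CPM), Psmd2 (168 CPM), Psmd5 (62.7 CPM), Psmd11 (191 CPM) and Uba1 (117 CPM) were above the other 3 stromas. Sarcoma 3 was low for Pomp in stroma (157 CPM) and was the only stroma with Psmb11 (0.0999 CPM). Its stroma sum held 40022656 UMIs, against 4230767, 4274062 and 2872119 in sarcomas 1, 2 and 4. The absence of Psmb11 from those smaller sums is therefore not read as a difference. In sarcoma cells, sarcoma 1 was high for the beta ring as a whole (0.189% of UMIs), Txnl1 (258 CPM), Uchl5 (28.6 CPM) and Psma8 (0.0886 CPM). Sarcoma 2 was low for Psmc2 in sarcoma cells (122 CPM) and for Psmd9 in the whole library (50.4 CPM).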

How the results depend on the processing

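The number of genes called between sarcoma cells and stroma, 171, was 3218 with DESeq2, 1099 with limma-voom, 510 after thinning, 555 with a stroma gate of 8 UMIs, 12 with cells of both gates kept, and 0 to 1567 when 1 sarcoma was left out (0 without sarcoma 1 or 2, 2 without sarcoma 3, 1567 without sarcoma 4). With stroma limited to cells with Smarcb1 and without Gchfr it was 1160, and 1545 without sarcoma 4 as well, an alternative chosen after seeing the data. Without the replicate block (the library) it was 38. No member was called under any of these. Estimates near 0 changed sign. Psmb6 was -0.0055 with DESeq2, -0.0061 with its size factors, -0.032 to 0.11 leaving out 1 sarcoma, -0.048 thinned, -0.032 and -0.020 with the limited stroma (all libraries, without sarcoma 4), -0.0013 with both gates kept and -0.025 in sarcoma cells with 0 cycling UMIs. Psmd5 was -0.022 without the block. Psmd9 was -0.014 with the limited stroma without sarcoma 4. With the gate of 8 UMIs Psmd3 was 0.022, Psmd8 0.056 and Psma3 0.016. Unfiltered, Psmd8 was 0.0021 and Psma3 0.034. Psma3 was 0.060 thinned, 0.010 with at least 5 UMIs of Gchfr and 0.014 with the limited stroma without sarcoma 4. Leaving out 1 sarcoma gave -0.065 to 0.15 for Psmd5, -0.071 to 0.0053 for Psmd8 and -0.020 to 0.032 for Psma3; the member median was 0.13 to 0.20, and Psmd10 was 0.37 without sarcoma 3. Against muscle progenitors, library-size scaling gave a member median of 0.62, and 0.59 for whole libraries; DESeq2 called 1914 genes and 3 members in sarcoma cells, 636 genes in stroma, and 1172 genes and 1 member in whole libraries; limma-voom called 104 genes in sarcoma cells. In stroma, thinning gave 21 genes, the limited stroma 135 and, without sarcoma 4, 575. Leaving out 1 sarcoma gave member medians of 0.71 to 0.87 in sarcoma cells, 0.39 to 0.61 in stroma and 0.70 to 0.89 in whole libraries, 0 to 285 genes called in stroma, and -0.73 to 0.36 for Psma8 in whole libraries; Psmd10 in stroma was 0.86 without sarcoma 4. Unfiltered, Psma8 was 0.011 in whole libraries; its values rest on 1 to 22 UMIs per library. Between cycling and other sarcoma cells, members called were 10 with library-size scaling (11.2% of all genes called), 2 with DESeq2 size factors (13.2%), 11 with DESeq2 (21.2%), 2 with limma-voom (15.6%), 2 with a cycling gate of 4 UMIs (16.2%), 0 unfiltered and 0 without the replicate block, with 3009 genes called by DESeq2 and 257 without the block. Leaving out 1 sarcoma gave 493 to 1242 genes and 0 members in each case, a member median of 0.14 to 0.22, -0.0062 to 0.14 for Psmd8 and -0.019 to 0.0033 for Psmb1. Psmb1 was 0.044 with library-size scaling. Without ribosomal and mitochondrial genes in the total, members took 0.795% of UMIs in sarcoma cells and 0.479% in muscle progenitors. Of 1129 values for single genes under alternatives, 1063 kept direction and side of the threshold. The cause of these shifts was not tested. Counting limits Psma8 and Psmb11 most.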
